A study of Homo sapiens with 24 samples.

Results

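The aryl hydrocarbon receptor (AHR), its partner ARNT, its repressor AHRR and 6 genes that the receptor is known to induce (CYP1A1, CYP1A2, CYP1B1, TIPARP, ALDH3A1 and UGT1A6) were followed in RNAseq counts of 4 human cancer cell lines treated with Ocoxin, a supplement that combines extracts of plants with vitamins, minerals and amino acids. The 9 genes were selected by name, with earlier results on the response of these libraries to Ocoxin in view, and all 9 were matched among the 58051 genes of the count tables. Their response to Ocoxin is therefore given as a description, with counts of calls but without p-values. Each cell line had 3 control and 3 Ocoxin libraries, taken from adhered cells after 48 h: SW620, a colorectal adenocarcinoma line (COAD, Ocoxin diluted 700-fold), BxPC-3, a pancreatic adenocarcinoma line (PAAD, 500-fold), LNCaP, a prostatic adenocarcinoma line (PRAD, 50-fold), and HCC-70, a triple-negative breast cancer line (TNBC, 700-fold). The labels attach the dilution to the control libraries too, so controls were recognised by the letters C and O of the library titles. Each cancer type was represented by 1 cell line, and the dilutions differed between the lines except for COAD and TNBC.

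AHR is a transcription factor that waits in the cytoplasm in a complex with heat shock protein chaperones until it binds a ligand, such as a polycyclic aromatic hydrocarbon, a dietary plant compound or a tryptophan metabolite. It then enters the nucleus, pairs with ARNT and binds xenobiotic response elements, short DNA sites with the core GCGTG, near genes of xenobiotic metabolism. AHRR competes with AHR for ARNT and TIPARP modifies AHR with ADP-ribose, and since AHR induces both genes, both act as brakes on the receptor that switched them on.

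The libraries held between 9063968 and 9520969 counts in PRAD and between 25160757 and 39009959 in the other lines, where a read pair mostly gave 2 counts. Levels are given as CPM, the count scaled by the library total after TMM normalisation, and levels of different genes are compared only per kilobase of exon (RPKM). Of the 7 markers of each tissue, at least 1 CPM was found for 7 in LNCaP, 7 in BxPC-3, 6 in HCC-70 (not ELF5) and 5 in SW620 (not CDX1 and KRT20). Not all markers were particular to their line, since 6 of the 7 BxPC-3 markers also reached 1 CPM in SW620 and in HCC-70, 6 of the 7 HCC-70 markers did so in BxPC-3, and 5 of the 7 LNCaP markers did so in SW620. HCC-70 had no counts of PGR, 6.85 CPM of ESR1 and 248 CPM of ERBB2 in its control libraries, so at the RNA level ERBB2 was not at 0 in the line named triple-negative. Of 8 stromal, endothelial and blood cell genes, 7 reached 1 CPM in PAAD, 4 in COAD, 4 in PRAD and 3 in TNBC. The highest of them were CD14 with 134 CPM in TNBC and VWF with 78.2 CPM in PRAD, while PTPRC lay under 1 CPM in all 4 lines. Their summed level was 16.1 CPM in the controls and 15.7 with Ocoxin in COAD, 36.1 and 41.4 in PAAD, 154 and 126 in PRAD, and 152 and 132 in TNBC, and its part in the results was not tested. In these bulk libraries, a larger share of expressing cells and more RNA per expressing cell cannot be told apart.

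CYP1A1 (ENSG00000140465) and CYP1A2 (ENSG00000140505) are neighbours that are read away from each other. In hg38, CYP1A1 lies on the minus strand at chr15:74719542-74725610 and CYP1A2 on the plus strand at chr15:74748844-74756202, with 23233 bases between them. Promoter entries of RefSeq (GRCh38.p14) matched 7 of the 9 genes, all but CYP1B1 and ALDH3A1, with 11 entries. The 250 bases before the RefSeq start of each entry were searched on both strands for the core GCGTG and for TNGCGTG, a longer form that contains it. This start can differ from that of the gene span used for counting. The CYP1A1 window lies partly, and both AHRR windows lie wholly, inside the spans given in this text. The core was found in 5 of the 11 entries (of AHRR, CYP1A1, TIPARP and UGT1A6), against 32.2% of all 35116 entries of this length, and the longer form in 2 of the 11 (of AHRR and UGT1A6), against 4.52% of all entries. A match is a description of the letters and was not tested as a site. The windows of the 3 members called in LNCaP are printed here from 5′ to 3′ on the strand of the gene, with every core match in capitals. CYP1A1 (chr15:74725529-74725778, minus strand) has 1 match, CYP1A2 (chr15:74748595-74748844, plus strand) has 0, and the entries of AHRR have 1 (chr5:321464-321713) and 2 (chr5:322360-322609). The last sequence (chr15:74726394-74726643 of hg38, minus strand) is the 250-base window with the most matches, chosen for that, among the 2000 bases before the RefSeq start of CYP1A1. It begins 1115 bases before the start and holds 4 of the 11 core matches of those 2000 bases.
CYP1A1 promoter: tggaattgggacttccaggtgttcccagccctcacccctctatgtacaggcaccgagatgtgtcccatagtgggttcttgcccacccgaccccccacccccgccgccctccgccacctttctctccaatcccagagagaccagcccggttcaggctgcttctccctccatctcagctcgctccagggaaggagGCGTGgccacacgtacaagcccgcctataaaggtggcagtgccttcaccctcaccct
CYP1A2 promoter: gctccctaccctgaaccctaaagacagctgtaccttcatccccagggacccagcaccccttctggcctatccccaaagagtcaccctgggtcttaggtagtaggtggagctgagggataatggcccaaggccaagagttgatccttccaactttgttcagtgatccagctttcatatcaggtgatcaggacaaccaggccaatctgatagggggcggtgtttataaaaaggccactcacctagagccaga
AHRR promoter, entry 1: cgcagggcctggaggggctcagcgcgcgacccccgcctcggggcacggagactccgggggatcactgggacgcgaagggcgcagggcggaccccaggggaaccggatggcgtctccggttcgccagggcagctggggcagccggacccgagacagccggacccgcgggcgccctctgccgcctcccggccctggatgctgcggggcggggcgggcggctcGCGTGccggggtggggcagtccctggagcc
AHRR promoter, entry 2: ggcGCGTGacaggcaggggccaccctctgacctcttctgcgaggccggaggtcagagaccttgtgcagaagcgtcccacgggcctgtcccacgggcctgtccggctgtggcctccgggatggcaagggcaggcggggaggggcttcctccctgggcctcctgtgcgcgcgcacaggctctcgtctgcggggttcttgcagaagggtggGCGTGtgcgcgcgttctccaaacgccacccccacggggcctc
CYP1A1 upstream window: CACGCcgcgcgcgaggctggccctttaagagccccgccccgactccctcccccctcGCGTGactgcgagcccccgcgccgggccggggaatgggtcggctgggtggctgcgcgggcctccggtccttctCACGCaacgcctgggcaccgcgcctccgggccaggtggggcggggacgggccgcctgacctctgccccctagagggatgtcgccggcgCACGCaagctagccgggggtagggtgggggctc
At least 4 matches occur in 1.12% of the promoter entries, although those were not chosen as the best of many windows. The whole interval between both genes holds 33 core matches.

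In order to compare the untreated cells, the members were first set side by side in the control libraries. The receptor itself was most abundant in TNBC and least abundant in PRAD. AHR (ENSG00000106546, chr7:17298622-17346152) had 31.2 ± 0.751 RPKM in TNBC, 22.6 ± 1.36 in PAAD, 3.20 ± 0.137 in COAD and 0.950 ± 0.297 in PRAD (SD, n = 3). ARNT (ENSG00000143437, chr1:150809705-150876768), the partner that AHR shares with the hypoxia factors, varied less, with 24.2 ± 1.37 RPKM in PRAD, 17.7 ± 0.352 in TNBC, 8.62 ± 0.0960 in COAD and 5.93 ± 0.264 in PAAD. PRAD was thus the line with the least receptor and the most partner in these libraries, although its counts came from a separate run and were not tested against the others.

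The repressor had another order. AHRR (ENSG00000063438, chr5:304176-438291) had 26.2 ± 1.47 RPKM in COAD and 3.98 ± 0.134 in PAAD, but 0.234 ± 0.0533 in PRAD and 0.230 ± 0.0223 in TNBC, and these lower levels did not differ beyond their spread. The ratio of AHRR to AHR, both per length, lay between 7.31 and 8.69 in the COAD controls, between 0.165 and 0.196 in PAAD, between 0.145 and 0.414 in PRAD and between 0.00674 and 0.00792 in TNBC. COAD was thus the only line of the 4 in which the repressor had a higher level per length than the receptor.

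The induced genes were also spread unevenly over the untreated lines. CYP1A1, which oxidises polycyclic aromatic hydrocarbons, had 21.3 ± 1.04 RPKM in TNBC, 2.38 ± 0.585 in PAAD, 0.924 ± 0.175 in COAD and 0.820 ± 0.0946 in PRAD. CYP1B1 (ENSG00000138061, chr2:38066973-38109902), which hydroxylates oestrogens as well as xenobiotics, had 30.4 ± 3.57 RPKM in TNBC, 12.5 ± 0.806 in PAAD and 0.631 ± 0.0692 in COAD, with 0 counts in the 3 PRAD controls. Both P450 genes were highest in the line with the most AHR. CYP1A2, known mainly from liver, had 0.383 ± 0.165 RPKM in PRAD and no more than 0.0258 in the other lines.

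TIPARP (ENSG00000163659, chr3:156673235-156706770) was the member with the smallest range among the induced genes, with 37.0 ± 0.439 RPKM in COAD, 22.6 ± 0.955 in PAAD, 14.9 ± 0.719 in TNBC and 5.97 ± 0.713 in PRAD. ALDH3A1 (ENSG00000108602, chr17:19737984-19748943), an aldehyde dehydrogenase, had 245 ± 22.3 RPKM in PAAD, the highest level of a member in any untreated line, against 11.8 ± 0.815 in COAD, 0.496 ± 0.0820 in TNBC and 0.0183 ± 0.0159 in PRAD. UGT1A6 (ENSG00000167165, chr2:233691607-233773300), which conjugates phenols with glucuronic acid, had 1.15 ± 0.127 RPKM in PAAD and 1.07 ± 0.0440 in TNBC, and at most 0.0141 in the other lines. The line with the highest level was TNBC for AHR, CYP1A1 and CYP1B1, COAD for AHRR and TIPARP, PAAD for ALDH3A1 and UGT1A6, and PRAD for ARNT and CYP1A2, with PRAD set beside the others without a test.

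**Figure D1:**
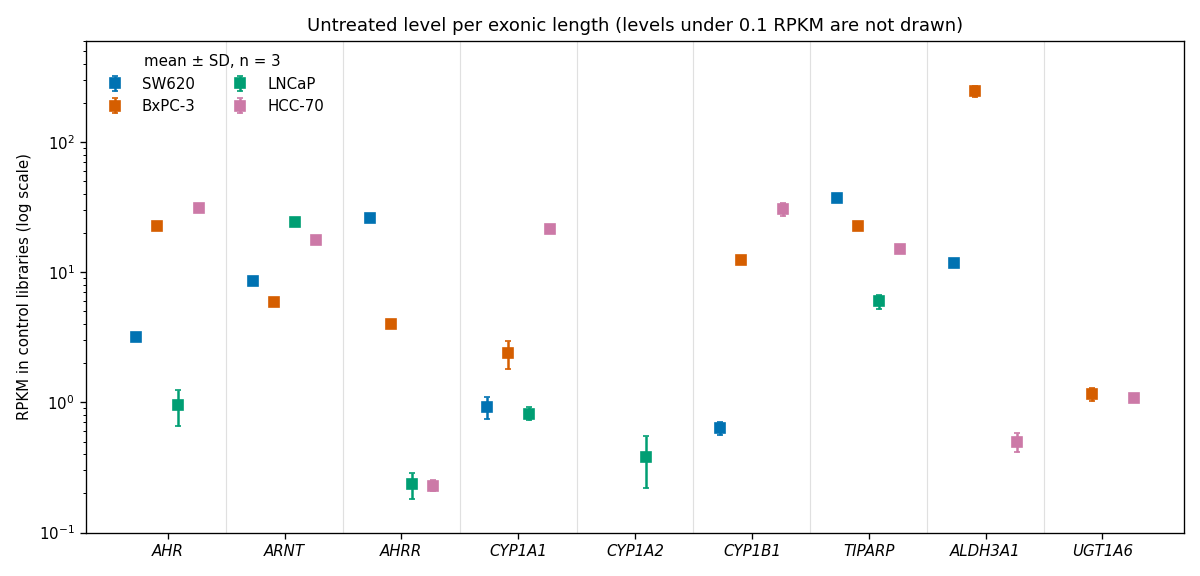
Mean RPKM of the 9 genes in the 3 control libraries of each cell line, on a log scale with the SD as bars. AHR and CYP1B1 peak in HCC-70, AHRR and TIPARP in SW620 and ALDH3A1 in BxPC-3, and levels under 0.1 RPKM are left out.

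The levels of the untreated COAD, PAAD and TNBC cells, counted in 1 run, were tested with the quasi-likelihood test of edgeR and Benjamini-Hochberg adjustment over all genes. Genes differed widely between these lines in general, so the share of all 19930 genes called (adjusted p under 0.05) was 78.6% for COAD and PAAD, 82.8% for COAD and TNBC and 77.1% for PAAD and TNBC. Against this background, 8 of the 8 members tested differed in each comparison with COAD and 7 of 8 between PAAD and TNBC, which is near the share of all genes. AHR was 8.29-fold lower in COAD than in PAAD (edgeR adjusted p = 5.81e-21) and 10.9-fold lower in COAD than in TNBC (edgeR adjusted p = 7.25e-22), while PAAD and TNBC differed 1.31-fold (edgeR adjusted p = 2.02e-06). AHRR was 102-fold higher in COAD than in TNBC (edgeR adjusted p = 2.90e-24) and 18.2-fold higher in PAAD than in TNBC (edgeR adjusted p = 1.53e-20). CYP1A1 was 25.9-fold higher in TNBC than in COAD (edgeR adjusted p = 4.54e-15), and ALDH3A1 was 522-fold higher in PAAD than in TNBC (edgeR adjusted p = 4.47e-23). UGT1A6 was the member that was not called between PAAD and TNBC, where it was 1.13-fold higher in PAAD (edgeR adjusted p = 0.301). CYP1A2 was too low to be tested.

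Overlapping genes limit how these levels can be read. Reads on exons of more than 1 gene were not assigned, and 39.2% of the exonic bases of AHR are shared with other genes, mostly with ENSG00000283321 on the same strand. For UGT1A6 the share is 64.4%, since the UGT1A genes have common 3′ exons, so its counts come from its own exons alone. CYP1B1 shares 13% of its exonic bases, mainly with CYP1B1-AS1 on the opposite strand, and the other members share at most 3.18%. Divided by the unshared length, AHR had 51.3 RPKM in TNBC, 37.1 in PAAD, 5.26 in COAD and 1.56 in PRAD. On the same scale AHRR had 0.237, 4.11, 27.1 and 0.242 RPKM in these lines, so that every ratio of AHRR to AHR was lower than that given above, and COAD stayed the only line with more AHRR than AHR. UGT1A6 moved most, to 3.24 RPKM in PAAD and 3.02 in TNBC.

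Ocoxin was followed by higher CYP1A1 in PRAD, TNBC and COAD and by higher CYP1B1 in the 3 lines that express it, while AHR was called in TNBC and ARNT in no line. Over the 4 lines, 29 values of a member in a line passed the filter on low counts, of which 14 were called higher with Ocoxin (adjusted p under 0.05 over all genes) and 0 lower. In these lines, 1.47% to 9.65% of all genes were called higher and 0.580% to 11.3% lower. With replicates as a block, CYP1A1 (-0.50) and AHR (-0.16) were called lower in PAAD, where all genes called then numbered 3998 instead of 1440. Of these 29 log2 fold changes, 22 were above 0. The members that were not tested had few or no counts in that line, namely CYP1A2 and UGT1A6 in COAD, CYP1A2 in PAAD, CYP1B1, ALDH3A1 and UGT1A6 in PRAD, and CYP1A2 in TNBC.

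**Figure D2:**
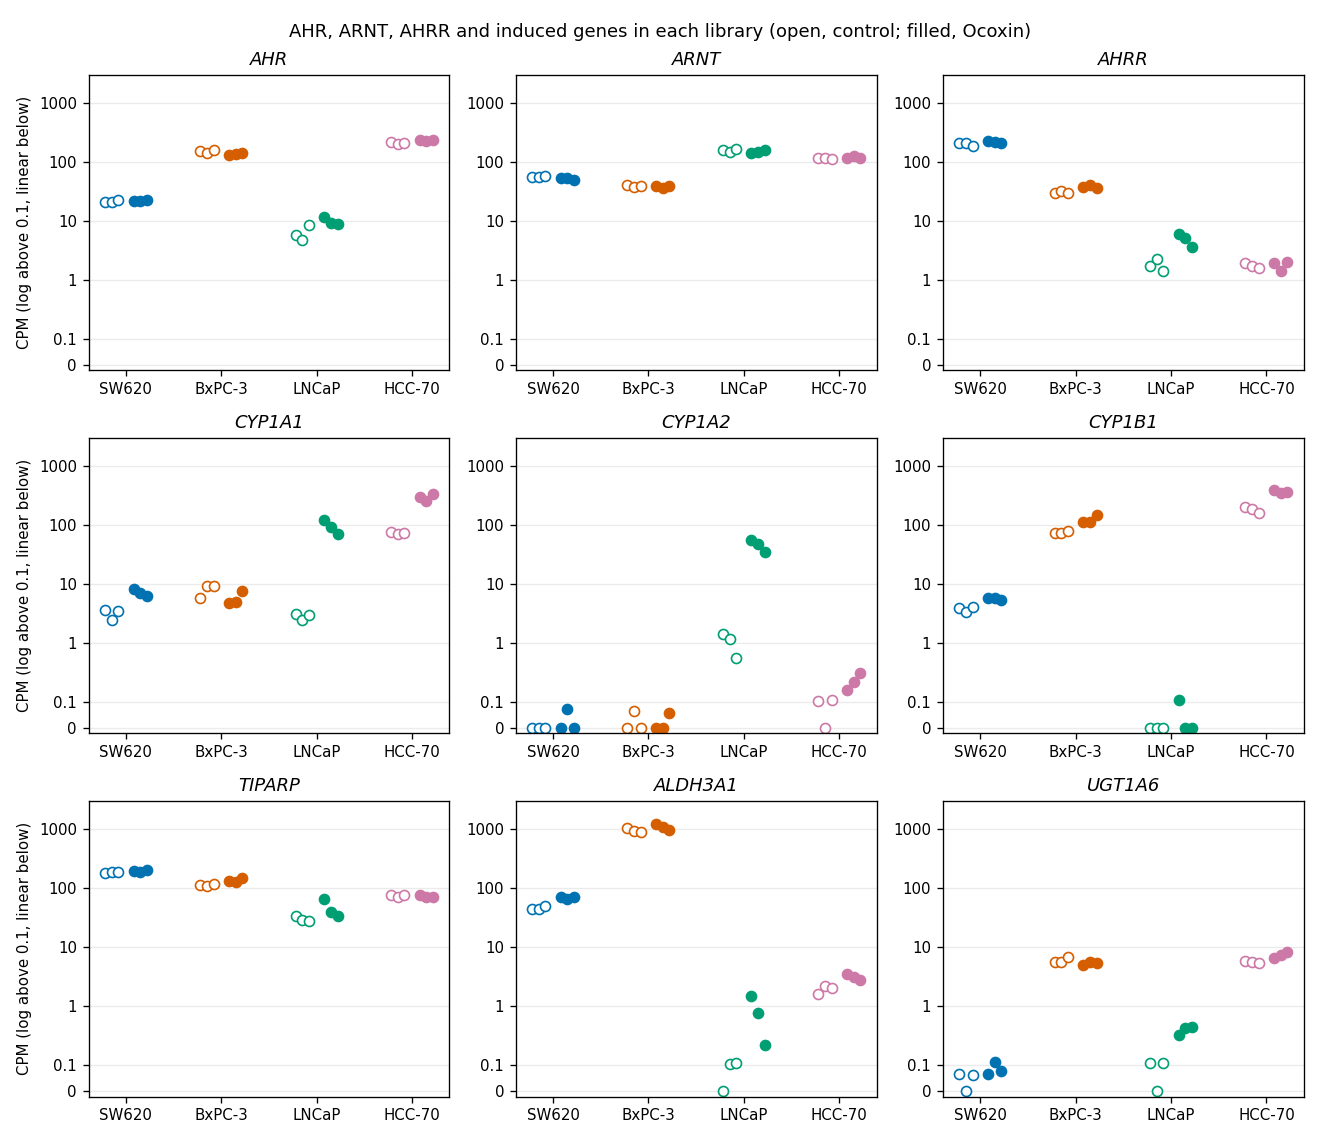
CPM of each gene in the 24 libraries, with open circles for control and filled circles for Ocoxin, on an axis that is logarithmic above 0.1 and linear below. The filled circles of CYP1A1 and CYP1A2 in LNCaP and of CYP1A1 and CYP1B1 in HCC-70 lie above the open ones without overlap, while those of ARNT lie close to the open ones in all 4 lines.

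In PRAD, CYP1A1 and CYP1A2 went from low to abundant. CYP1A1 had 3.05, 2.45 and 2.95 CPM in the control libraries and 120, 91.3 and 71.3 CPM in the Ocoxin libraries. CYP1A2 had 1.42, 1.17 and 0.546 CPM in the controls and 55.4, 48.5 and 35.5 CPM with Ocoxin. The groups of both genes were far apart, with no overlap. The log2 fold changes were 5.07 ± 0.26 (SE) for CYP1A1, a 33.5-fold difference, and 5.47 ± 0.29 for CYP1A2, a 44.5-fold difference. Among the 17070 genes tested in PRAD, CYP1A2 had the 3rd and CYP1A1 the 5th highest log2 fold change. Both genes are the pair of neighbours whose promoters are printed above, 1 with and 1 without a core match.

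Of the brakes of the receptor, AHRR was called higher in PRAD and TIPARP was not. AHRR had 1.75, 2.23 and 1.42 CPM in the controls and 5.88, 5.04 and 3.54 CPM with Ocoxin, without overlap, a log2 fold change of 1.42 ± 0.26. It was called, but in only 1 of the 6 fits that left out a library (that without Ocoxin replicate 3), with log2 fold changes of 1.25 to 1.60. TIPARP had 34.2, 28.6 and 27.5 CPM in the controls and 66.8, 39.6 and 33.2 CPM with Ocoxin, so the groups overlapped and it was not called (log2 fold change 0.63 ± 0.25, and 0.60 and called with replicates as a block). Without Ocoxin replicate 1 the log2 fold change of TIPARP was 0.27. Ocoxin replicate 1 had the highest value of 7 of the 9 members and replicate 3 the lowest value of 6, although CYP1B1, ALDH3A1 and UGT1A6 had few counts. In PAAD, Ocoxin replicate 3 had the highest value of 6 members and replicate 1 the lowest of 5, so such an order was not particular to PRAD.

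The receptor and the remaining members other than ARNT were low in PRAD. AHR had 5.78, 4.68 and 8.52 CPM in the controls and 11.5, 9.01 and 8.74 CPM with Ocoxin, which do not overlap but were not called (log2 fold change 0.63 ± 0.23). In the fit of all 24 libraries AHR was called in PRAD (0.60). ARNT had 158, 148 and 166 CPM in the controls and 143, 148 and 158 CPM with Ocoxin (log2 fold change -0.07 ± 0.06). ALDH3A1 had 2 counts in the 3 controls together and 23 with Ocoxin, a ratio scaled to the library totals of 11.5 with an exact 95% interval of 2.85 to 101, and UGT1A6 had 2 and 11 counts, a ratio of 5.51 (1.20 to 51.2). These intervals cover counting error only. CYP1B1 had 0 counts in the controls and 1 with Ocoxin, so no fold is given. Of the 6 members tested in PRAD, 3 were called higher and 0 lower, while 2.40% of all genes were called higher and 0.580% lower.

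In TNBC, where CYP1A1 and CYP1B1 were already high, both were higher again with Ocoxin. CYP1A1 had 77.1, 70.0 and 72.7 CPM in the controls and 305, 254 and 332 CPM with Ocoxin, a log2 fold change of 2.02 ± 0.10 and the 7th highest of 17352 genes. CYP1B1 had 204, 184 and 161 CPM in the controls and 386, 354 and 369 CPM with Ocoxin (log2 fold change 1.02 ± 0.08). The groups of both genes were apart in all libraries, and both were called in each of the 6 fits without a library.

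Of the other members tested in TNBC, 3 were called, all with smaller log2 fold changes. ALDH3A1 had 1.58, 2.21 and 2.04 CPM in the controls and 3.50, 3.15 and 2.77 CPM with Ocoxin (log2 fold change 0.69 ± 0.18). UGT1A6 had 5.77, 5.59 and 5.31 CPM in the controls and 6.64, 7.40 and 8.25 CPM with Ocoxin (log2 fold change 0.42 ± 0.12). AHR had 213, 204 and 207 CPM in the controls and 231, 224 and 234 CPM with Ocoxin, a small difference without overlap (log2 fold change 0.14 ± 0.04). Each of these 3 calls was lost without some single library. ALDH3A1 lost its call without control replicate 1, Ocoxin replicate 1 or Ocoxin replicate 2 (0.56 to 0.79 over the 6 fits), AHR without control replicate 2 or Ocoxin replicate 1 (0.13 to 0.16, and 0.13 and not called in the fit of 24 libraries), and UGT1A6 in every such fit but that without Ocoxin replicate 1 (0.34 to 0.49). The brakes stayed level, with AHRR at 1.95, 1.73 and 1.61 CPM in the controls and 1.91, 1.43 and 1.97 CPM with Ocoxin, and TIPARP between 71.2 and 78.2 CPM in all 6 libraries. ARNT, with 117, 116 and 113 CPM in the controls and 117, 126 and 115 CPM with Ocoxin, overlapped as well (log2 fold change 0.05 ± 0.04). CYP1A2, which was not tested, had 8 counts in the 3 controls together and 26 with Ocoxin, or 4 and 13 read pairs, a ratio of 3.34 with an exact 95% interval of 1.03 to 14.1, and its groups did not overlap. Of the 8 members tested in TNBC, 5 were called higher and 0 lower, beside 9.65% of all genes called higher and 11.3% lower.

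In COAD, treated with the same dilution as TNBC, CYP1A1 was again the member with the largest change, from a low level. It had 3.56, 2.48 and 3.48 CPM in the controls and 8.27, 6.95 and 6.33 CPM with Ocoxin, without overlap (log2 fold change 1.19 ± 0.16). ALDH3A1 had 43.7, 44.7 and 49.7 CPM in the controls and 70.7, 64.5 and 70.0 CPM with Ocoxin (log2 fold change 0.57 ± 0.06). CYP1B1 had 3.92, 3.33 and 4.13 CPM in the controls and 5.85, 5.73 and 5.42 CPM with Ocoxin (log2 fold change 0.58 ± 0.15). CYP1A1 and ALDH3A1 were called in all 6 fits without a library, whereas CYP1B1 was called only in that without control replicate 3 (0.50 to 0.66 over the 6 fits). AHRR, at its highest in this line, had 206, 209 and 188 CPM in the controls and 227, 220 and 208 CPM with Ocoxin, which overlap (log2 fold change 0.12 ± 0.05). TIPARP (0.08 ± 0.05), AHR (0.04 ± 0.07) and ARNT (-0.10 ± 0.06) were not called either. Of the 7 members tested in COAD, 3 were called higher and 0 lower, beside 1.47% of all genes called higher and 1.09% lower.

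PAAD was the line in which CYP1A1 was not higher with Ocoxin. CYP1A1 had 5.85, 9.27 and 9.39 CPM in the controls and 4.74, 5.04 and 7.54 CPM with Ocoxin, with overlapping groups (log2 fold change -0.50 ± 0.19). CYP1B1 went the other way, with 72.3, 72.5 and 80.8 CPM in the controls and 112, 112 and 148 CPM with Ocoxin (log2 fold change 0.72 ± 0.09). The CYP1 genes of the same cells thus had changes of opposite sign.

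In PAAD every Ocoxin library held less CYP1A1 than the control of its number. The labels state no pairs, and same-numbered libraries deviated together only weakly (r from 0.107 to 0.326). With the replicate number as a block CYP1A1 was called lower (log2 fold change -0.50), as it also was without control replicate 1 or Ocoxin replicate 3 (-0.74 to -0.37 over the 6 fits without a library). CYP1B1 was called in each of these fits. The brakes were slightly higher, AHRR with 29.9, 31.7 and 30.1 CPM in the controls and 37.4, 40.4 and 35.5 CPM with Ocoxin (log2 fold change 0.31 ± 0.07) and TIPARP with 113, 110 and 120 CPM in the controls and 132, 129 and 147 CPM with Ocoxin (0.26 ± 0.06). Their groups did not overlap, but AHRR lost its call without control replicate 1, Ocoxin replicate 1 or Ocoxin replicate 2 (0.26 to 0.35), and TIPARP kept it only without control replicate 3 or Ocoxin replicate 2 (0.20 to 0.29).

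AHR, ARNT, ALDH3A1 and UGT1A6 were not called in PAAD, but with the replicate block AHR (-0.16) and ALDH3A1 (0.19) were. AHR had 152, 141 and 159 CPM in the controls and 130, 134 and 140 CPM with Ocoxin, without overlap (log2 fold change -0.16 ± 0.06, called lower with the block). ALDH3A1 had 1055, 944 and 883 CPM in the controls and 1215, 1092 and 975 CPM with Ocoxin, which overlap (0.19 ± 0.08, called higher with the block and without Ocoxin replicate 3). UGT1A6 had 5.63, 5.55 and 6.73 CPM in the controls and 4.93, 5.52 and 5.46 CPM with Ocoxin, which do not overlap (-0.17 ± 0.13), and ARNT overlapped (-0.02 ± 0.07). Of the 8 members tested, 3 were called higher and 0 lower without the block, beside 4.72% of all genes called higher and 3.62% lower. With the block, 4 members were called higher and 2 lower, beside 3998 of all 17280 genes called, 52.3% of them higher.

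**Figure D3:**
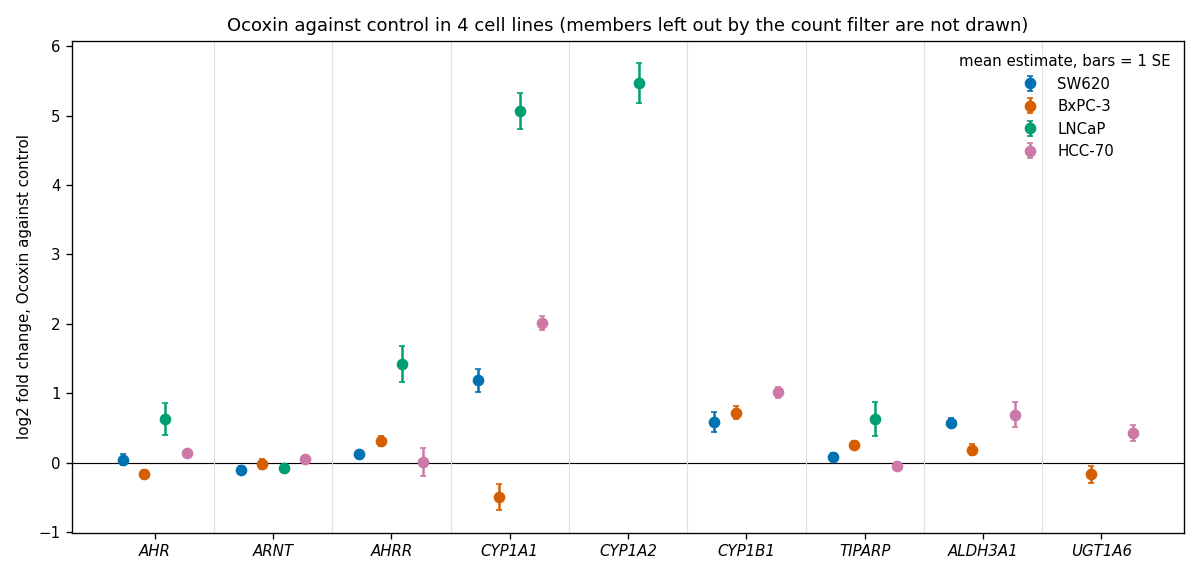
Log2 fold change of Ocoxin against control for each member tested in each cell line, with 1 SE as bars. CYP1A1 spans the range from -0.50 in BxPC-3 to 5.07 in LNCaP, CYP1B1 lies above 0 in the 3 lines in which it was tested, and ARNT lies near 0 in all 4.

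The CYP1 genes made up different mixtures in the 4 lines. Summed per length, CYP1A1, CYP1A2 and CYP1B1 had 1.20 ± 0.183 RPKM in the PRAD controls and 44.4 ± 10.7 with Ocoxin, 51.8 ± 4.26 and 148 ± 13.4 in TNBC, 1.56 ± 0.242 and 3.04 ± 0.320 in COAD, and 14.9 ± 1.23 and 22.3 ± 3.88 in PAAD (SD, n = 3). In PRAD this sum was 68.9% ± 10.6 CYP1A1 and 31.1% ± 10.6 CYP1A2 in the controls and 61.5% ± 1.64 and 38.5% ± 1.66 with Ocoxin. In TNBC the share of CYP1A1 was 41.3% ± 2.45 in the controls and 58.2% ± 2.76 with Ocoxin, and CYP1B1 made up nearly all of the rest. In PAAD the share of CYP1B1 was 84.1% ± 3.13 in the controls and 92.5% ± 0.711 with Ocoxin.

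CYP1A1 and CYP1A2 are similar in sequence, and primary alignments of reads that fit several places were counted. In the Ocoxin libraries CYP1A2 had 46.2, 53.1 and 49.8 counts per 100 of CYP1A1 in PRAD, but 0.0530, 0.0849 and 0.0936 in TNBC, where CYP1A1 was higher. Whether misplaced reads of CYP1A1 added to CYP1A2 was not tested. PRAD and TNBC were counted separately and with different options, so the shares of TNBC do not carry over to PRAD.

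**Figure D4:**
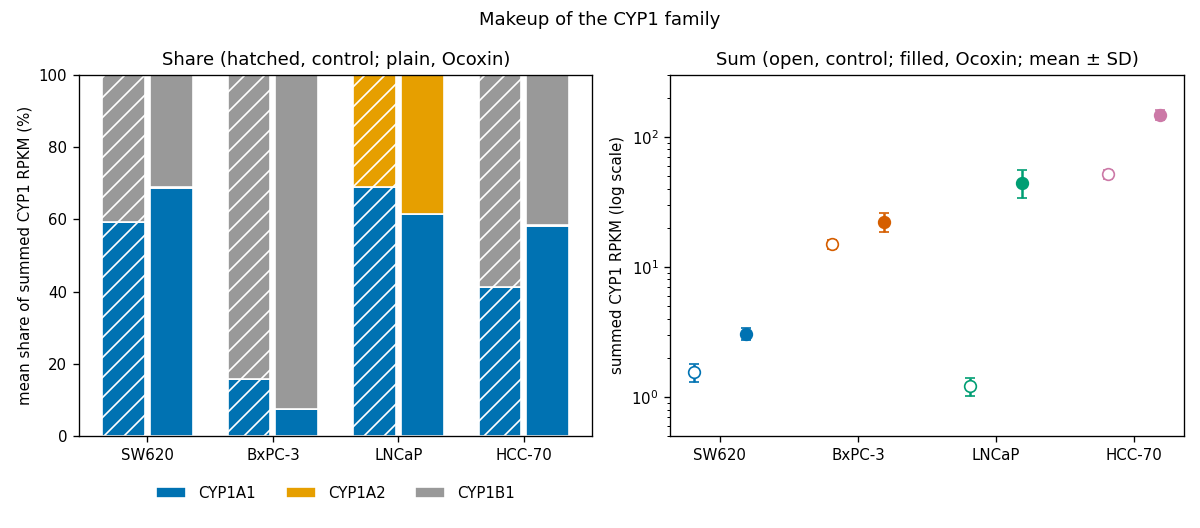
Left, mean share of CYP1A1, CYP1A2 and CYP1B1 in the summed RPKM of the family, with hatched bars for control and plain bars for Ocoxin. Right, the summed RPKM on a log scale (mean ± SD of 3 libraries, open for control and filled for Ocoxin), which is 1.20 in the LNCaP controls and 44.4 with Ocoxin.

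In order to compare the responses between lines, the difference of their log2 fold changes was taken from a fit of all 24 libraries, for the members tested in both lines. Only COAD and TNBC were treated with the same dilution, so the other differences also hold a difference in dilution, and the line and its dilution cannot be told apart. Those with PRAD also hold a separate count table and lower library totals, which cannot be told apart from the line either. The response of CYP1A1 was larger in PRAD than in TNBC by 3.03 ± 0.38 (SE), than in COAD by 3.84 ± 0.46 and than in PAAD by 5.53 ± 0.40. It was also larger in TNBC than in PAAD by 2.50 ± 0.29 and in COAD than in PAAD by 1.69 ± 0.37. These 5 differences were called, the last not without COAD control replicate 2. Between COAD and TNBC, at equal dilution, the response of CYP1A1 differed by -0.81 ± 0.33, which was not called, and by -0.81 ± 0.17 with the replicate block, which was. The numbers of COAD do not pair, however, and for these lines the block called 3705 genes, against 1669 without it.

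The response of AHRR was larger in PRAD than in COAD by 1.27 ± 0.23, than in PAAD by 1.09 ± 0.24 and than in TNBC by 1.40 ± 0.27, and all of these were called. AHR differed between PAAD and PRAD by -0.76 ± 0.16, called but not without PRAD control replicate 2. The response of CYP1B1 differed by -0.13 ± 0.19 between COAD and PAAD, by -0.42 ± 0.19 between COAD and TNBC and by -0.28 ± 0.13 between PAAD and TNBC, none of which was called. With the replicate block, whose numbers pair only weakly in PAAD and TNBC, the latter was -0.30 ± 0.08 and was called, as it also was without PAAD Ocoxin replicate 3. For this pair of lines the block called 2550 genes, against 987 without it. The block also called AHR (-0.29 ± 0.06), ALDH3A1 (-0.50 ± 0.13) and TIPARP (0.31 ± 0.07) for PAAD minus TNBC, and TIPARP for PAAD minus PRAD (-0.33 ± 0.10), PRAD minus TNBC (0.64 ± 0.10) and COAD minus PRAD (-0.49 ± 0.10), and ALDH3A1 for COAD minus PAAD (0.39 ± 0.06), where the numbers of COAD do not pair. Members called without the block numbered 1 of 7 for COAD and PAAD (3.44% of all genes), 2 of 5 for COAD and PRAD (0.832%), 0 of 7 for COAD and TNBC (6.78%), 3 of 5 for PAAD and PRAD (3.29%), 1 of 8 for PAAD and TNBC (4.01%) and 2 of 5 for PRAD and TNBC (3.59%). The contrasts share libraries and are not independent of each other.

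The other genes of the pathway were taken from 6 lists, with 77 of 78 symbols found in the tables, and were tested in the fit of each line. The lists were chosen with earlier results known, and some genes named below after their values were seen. Their adjusted p-values are therefore a description. Of the 29 other genes described as AHR-induced, 1 of 16 tested rose in COAD and 0 fell. The counts were 6 risen and 4 fallen of 24 in PAAD, 5 and 0 of 16 in PRAD, and 4 and 7 of 21 in TNBC. Of all genes, 1.47% rose and 1.09% fell in COAD, 4.72% and 3.62% in PAAD, 2.40% and 0.580% in PRAD, and 9.65% and 11.3% in TNBC. The median log2 fold change of the list was 0.06 for COAD and -0.06 for PAAD, against 0.17 for PRAD and -0.01 for TNBC, while that of all genes lay between -0.01 and 0.01. The genes of the list therefore did not move one way in PAAD and TNBC. Over all 6 lists, 6 genes were called in PRAD and 3 in COAD, but when 1 library was left out the counts ranged from 0 to 4 in PRAD and from 0 to 5 in COAD. In COAD none was called without control replicate 1, control replicate 2 or Ocoxin replicate 2, and in PRAD none without Ocoxin replicate 2.

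UGT1A1, which glucuronidates bilirubin, had the largest change of this list. It rose in PRAD from 0.327, 0.213 and 0.109 CPM to 5.34, 3.22 and 1.88 CPM (log2 fold change 4.01 ± 0.60, edgeR adjusted p = 0.0237) and in TNBC from 0.779, 1.18 and 1.5 CPM to 2.88, 2.45 and 1.99 CPM (1.08 ± 0.25, edgeR adjusted p = 0.00861). Both lines had no overlap between the groups, and in PAAD UGT1A1 had a log2 fold change of -0.04 ± 0.10. Like UGT1A6, it was counted on its own exons only, so its level is that of few reads. SCIN, an actin-severing protein, rose in PRAD from 5.27 ± 0.113 to 10.2 ± 1.40 CPM (edgeR adjusted p = 0.0232).

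NQO1, a quinone reductase, was the gene of the list called in all 4 lines, its log2 fold change being 0.80 ± 0.06 in PRAD, 0.26 ± 0.05 in PAAD, 0.21 ± 0.05 in COAD and 0.11 ± 0.04 in TNBC (edgeR adjusted p between 0.00500 and 0.0429). SLC7A5, an importer of large neutral amino acids such as tryptophan, rose in PAAD (0.74 ± 0.05), PRAD (0.77 ± 0.14) and TNBC (0.34 ± 0.04, edgeR adjusted p of 6.04e-07, 0.0378 and 2.37e-04). STC2, a secreted glycoprotein, rose in TNBC (0.32 ± 0.04) and PRAD (0.26 ± 0.04, edgeR adjusted p of 1.61e-04 and 0.0249). ABCG2, a drug efflux pump, rose in PAAD from 1.91 ± 0.489 to 3.83 ± 0.567 CPM (1.01 ± 0.20, edgeR adjusted p = 0.00537), and CYP2S1, a P450 of epithelia, rose there from 156 ± 12.5 to 213 ± 4.23 CPM (0.44 ± 0.06, edgeR adjusted p = 3.32e-04). IL1B and PTGS2, genes of inflammation, were the remaining genes that rose in PAAD.

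Of the genes that fell, VAV3, a guanine nucleotide exchange factor (-0.60 ± 0.10, edgeR adjusted p = 0.00193), and FLG, filaggrin of the epidermis (-0.49 ± 0.11, edgeR adjusted p = 0.0140), were lower in PAAD, as were HES1 and UGT1A10. In TNBC, XDH, xanthine dehydrogenase, fell from 2.73 ± 0.505 to 0.923 ± 0.172 CPM (-1.57 ± 0.23, edgeR adjusted p = 4.90e-04). The epidermal growth factor receptor ligands EREG (-0.68 ± 0.18) and AREG (-0.61 ± 0.11) fell as well in TNBC (edgeR adjusted p = 0.0161 and 0.00171). SERPINB2, PTGS2, NEDD9 and ALDH1A3 were the other genes of the list that fell in TNBC, the last by 0.50 on the log2 scale. The same TNBC libraries thus had higher CYP1A1, CYP1B1 and UGT1A1 and lower XDH, EREG and AREG.

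**Figure D5:**
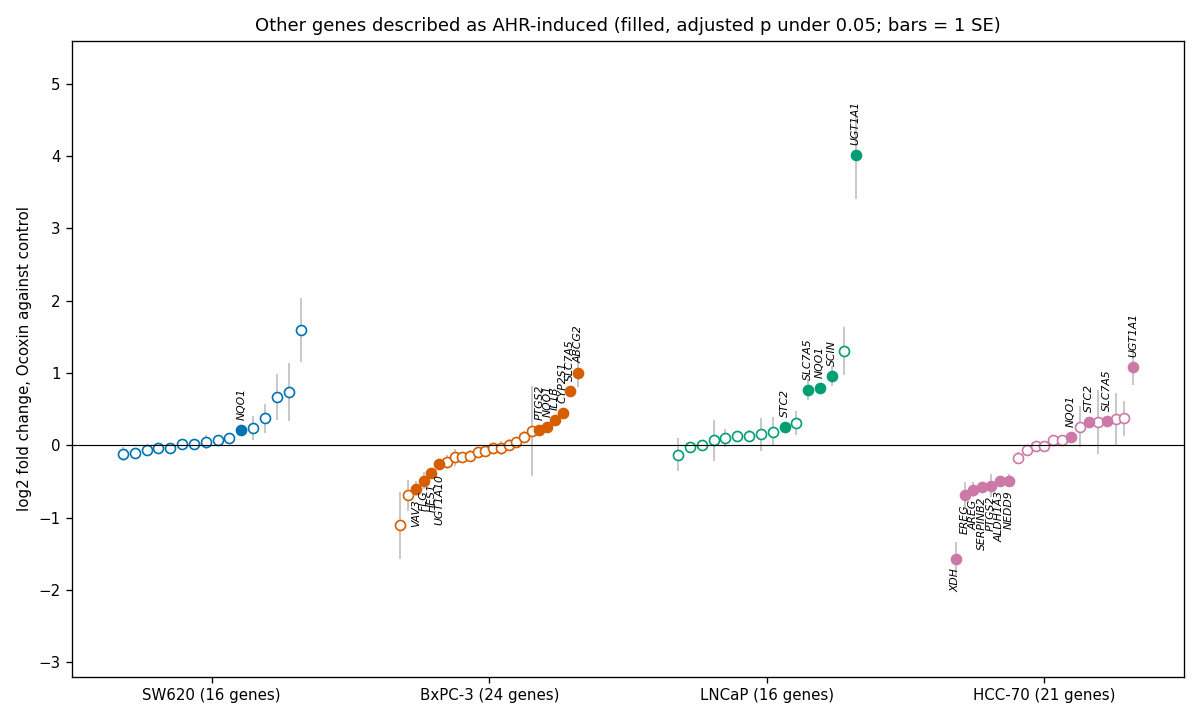
Log2 fold change of Ocoxin against control for the other genes described as AHR-induced, ordered within each cell line, with 1 SE as bars and filled symbols for an adjusted p under 0.05. In LNCaP the 5 filled genes lie above 0, whereas in BxPC-3 and HCC-70 they lie on both sides.

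The proteins that hold the receptor or act with it in the nucleus gave most of their calls in TNBC, which is also the line with the most calls over all genes (9.65% higher and 11.3% lower). Of its 12 chaperones and cofactors, 1 fell in COAD and 0 rose, 1 rose in PAAD and 0 fell, none was called in PRAD, and 6 rose and 2 fell in TNBC. In TNBC the coactivators CREBBP (log2 fold change 0.46 ± 0.05, edgeR adjusted p = 7.12e-05) and EP300 (0.41 ± 0.05, edgeR adjusted p = 2.60e-04) rose, and the chaperone HSP90AA1 fell (-0.26 ± 0.04, edgeR adjusted p = 3.87e-04). NRIP1, a corepressor, also rose there (0.21 ± 0.04, edgeR adjusted p = 0.00320). In COAD the chaperone HSP90AB1 fell from 1993 ± 58.8 to 1757 ± 1.84 CPM (edgeR adjusted p = 0.0202). CREBBP rose in PAAD as well (0.29 ± 0.06, edgeR adjusted p = 0.00997).

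The remaining lists held few calls. Few of their genes were tested in a line, and of all genes only 1.47% to 9.65% were called higher and 0.580% to 11.3% lower. Of the 10 ARNT relatives and partners, 8 were tested in PAAD and 7 in each other line. HIF1A, the oxygen-regulated partner of ARNT (0.33 ± 0.05, edgeR adjusted p = 6.09e-04), and ARNT2 (0.52 ± 0.12, edgeR adjusted p = 0.0134) rose in PAAD. BMAL2, a clock protein, fell in TNBC (-0.30 ± 0.06, edgeR adjusted p = 0.004). Of the 11 enzymes of the kynurenine pathway, which makes AHR ligands from tryptophan, none rose in any line, and KYAT3 fell in PAAD (-0.23 ± 0.07) and PRAD (-0.37 ± 0.07, edgeR adjusted p = 0.0465 and 0.0341) and IDO1, which opens the tryptophan ring, in TNBC (0.836 ± 0.171 to 0.363 ± 0.0673 CPM, edgeR adjusted p = 0.0219). Of the 5 electron donors and epoxide hydrolases, EPHX1 rose in COAD (0.24 ± 0.06, edgeR adjusted p = 0.0431) and TNBC (0.44 ± 0.04, edgeR adjusted p = 3.77e-05). EPHX2 also rose in TNBC (0.53 ± 0.08, edgeR adjusted p = 9.22e-04), where CYB5R3 fell (-0.17 ± 0.04, edgeR adjusted p = 0.00611). Of 10 genes of the xenobiotic receptors PXR and CAR, listed for comparison, CYP3A4 rose in PAAD from 0.651 ± 0.180 to 1.52 ± 0.512 CPM (edgeR adjusted p = 0.0275) and no other was called in any line. With replicates as a block, the calls over the 6 lists were 32 instead of 15 in PAAD, while those of all genes were 3998 instead of 1440.

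In order to find the genes whose pattern was most like that of CYP1A1, log2 CPM was centred on the mean of each line and correlated over the 24 libraries for 13340 genes tested in all 4 lines. The points share their cell line and library, so this is a description. The highest Pearson coefficients were those of RCBTB2 (0.953), GCLM (0.928), PTHLH (0.922), NEK11 (0.921) and LCA5L (0.910), and the lowest those of LOX (-0.881), GGA2 (-0.873) and ASF1B (-0.869). PTHLH, the parathyroid hormone-related hormone, had a log2 fold change of 3.83 in PRAD, 0.89 in TNBC, 0.81 in COAD and -0.20 in PAAD, the same signs as CYP1A1 in each line. GCLM, a subunit of the first enzyme of glutathione synthesis, had 0.94, 0.25, 0.03 and 0.07 in the same order. Among the members tested in all lines, the coefficients were 0.798 for AHRR, 0.770 for AHR, 0.592 for TIPARP and -0.298 for ARNT. By ranks (Spearman's rho) they were 0.575 for AHRR, 0.731 for AHR, 0.308 for TIPARP and -0.210 for ARNT.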

How the data were processed

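RNA of 4 cell lines was sequenced by the authors from 3 control and 3 Ocoxin libraries each. The reads were trimmed with fastp, aligned to hg38 with STAR, cleared of PCR duplicates with picard and counted on exons with featureCounts 2.0.3, without strand and without reads on more than 1 gene. The deposited values are raw whole counts of 58051 genes. PRAD has its own table, and COAD, PAAD and TNBC share another that was counted with the paired-end option. Of the identifiers, 56948 matched a symbol. The labels do not say that libraries came from separate cultures, so p-values measure the spread between these libraries.

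Each line was analysed in R 4.3.3 with edgeR 4.0.16: filterByExpr, TMM and the robust quasi-likelihood F-test (two-sided), with p-values adjusted after Benjamini-Hochberg over all genes tested and genes called at an adjusted p under 0.05. The fits were tested on simulated data. Same-numbered libraries deviated together in PAAD (r from 0.107 to 0.326), PRAD (0.110 to 0.449) and TNBC (0.156 to 0.424). The rule for pairing was that every r lie over 0.1, which COAD did not meet (0.0225 to 0.305). Libraries of different numbers reached an r of up to 0.163 in TNBC, 0.0986 in PRAD, 0.0901 in PAAD and 0.190 in COAD. The rule thus does not show that libraries were paired, and calls with the replicate block assume that they were. The members and the gene lists were chosen with earlier results of these data known. The text names all members, in each list up to 4 called genes per line with the largest absolute log2 fold change and a mean of at least 1 CPM, the 5 genes most like and 3 least like CYP1A1, and genes on members' exons. CYP2S1, STC2, IDO1, HES1, UGT1A10, IL1B, PTGS2, SERPINB2, NEDD9, ALDH1A3 and some lines of NQO1 and SLC7A5 fall outside this rule and were chosen after their values were seen. The values of 1 list gene are not reported here. Alternatives were DESeq2 1.42.0, other scaling, no filter, joint fits, a replicate block, halved counts and each library left out. RefSeq promoters were matched by symbol.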

Additional observations from a re-analysis of the deposited data

Results flagged for a closer look

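The response to Ocoxin differed between cell lines for 3 members in the joint edgeR fit of 24 libraries, given as log2 differences ± SE. For CYP1A1, COAD minus PAAD was 1.69 ± 0.37, COAD minus PRAD was -3.84 ± 0.46, PAAD minus PRAD was -5.53 ± 0.40, PAAD minus TNBC was -2.50 ± 0.29 and PRAD minus TNBC was 3.03 ± 0.38. For AHRR, COAD minus PRAD was -1.27 ± 0.23, PAAD minus PRAD was -1.09 ± 0.24 and PRAD minus TNBC was 1.40 ± 0.27. For AHR, PAAD minus PRAD was -0.76 ± 0.16. The genes were selected with the response in view, and the dilution of Ocoxin differed in all these pairs of lines, so these values are a description. PRAD also had a separate count table and lower library totals. Groups of 3 libraries were too small to look for single libraries far from the rest.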

How the results depend on the processing

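All 29 log2 fold changes of the members stayed within 1 SD of the replicates under each alternative, 371 values in all, with 10 changes of sign, all in AHRR of TNBC and ARNT of PAAD, whose values lie near 0. This SD comes from the same libraries, so leaving 1 of 3 out could hardly move a value beyond it. TIPARP of PRAD, for example, went from 0.63 to 0.27 without Ocoxin replicate 1 and stayed within its SD of 0.385. The count of 371 is therefore no measure of stability. Without the filter on low counts, genes called were 734 instead of 451 in COAD and 1092 instead of 508 in PRAD, other pathway genes in COAD 6 instead of 3, and members in PAAD 5 instead of 3. In the fit of 24 libraries, 288 genes were called in COAD and 998 in PRAD, and 3 members instead of 5 in TNBC. With the replicate block, the genes called were 5878 in TNBC, 3998 in PAAD, 1925 in COAD and 1451 in PRAD, with 6 members and 32 pathway genes in PAAD and 9 pathway genes in COAD. AHRR of COAD, whose numbers do not pair, was then also called. Response differences called with the block were 2581 and 2 members (COAD and PAAD), 746 (COAD and PRAD), 3705 and 1 member (COAD and TNBC), 1938 (PAAD and PRAD), 2550 and 5 members (PAAD and TNBC) and 2186 (PRAD and TNBC). With 18 libraries, 3 members differed between PAAD and TNBC. By Spearman's rho, 3 of the 5 genes most like CYP1A1 were the same. The cause of these shifts was not tested.

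The share of called genes that were higher was 56.6% in PAAD and 45.2% with upper-quartile scaling, and 80.5% in PRAD, 63.2% without the filter, 59.2% in the joint fit and 68.4% with the block. In COAD it was 57.4%, 64.9% in the joint fit and 44.9% with the block. With 1 library left out, genes called ranged from 121 to 782 (COAD), 641 to 1715 (PAAD), 3 to 398 (PRAD) and 2285 to 3864 (TNBC). Of the 3 genes called in PRAD without Ocoxin replicate 2, 2 were CYP1A1 and CYP1A2. In the same order of lines, members called ranged from 2 to 3, 1 to 4, 2 to 3 and 3 to 4, and other pathway genes from 0 to 5, 10 to 18, 0 to 4 and 17 to 24. Response differences ranged from 423 to 1106 genes and 0 to 2 members for COAD and PAAD, 111 to 249 and 2 to 3 for COAD and PRAD, 994 to 2105 and 0 for COAD and TNBC, 513 to 805 and 2 to 3 for PAAD and PRAD, 644 to 1030 and 1 to 3 for PAAD and TNBC, and 498 to 915 and 2 to 3 for PRAD and TNBC. Depth limits the members of few counts, which were not tested.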
